A study of Mus musculus with 20 samples.

Results

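Goblet cell and mucus genes were measured in 3 kinds of sample from Irgm1-/- and wild-type mice. The genes were chosen by name, as the array probes annotated to Muc2, Tff3, Fcgbp, Zg16, Spink4, Retnlb, Agr2 and Spdef, and make up 8 of the 30139 genes or transcripts on the array and 9 of its 39429 probes. Goblet cells are secretory cells of the gut lining that store mucin in granules and release it as the mucus gel that keeps bacteria away from the epithelium. Muc2 is the gel-forming mucin of the intestine, and Tff3, a trefoil peptide, and Fcgbp, an IgG Fc binding protein, are secreted with it. Zg16, a lectin that binds bacterial cell walls, Spink4, a Kazal-type protease inhibitor, and Retnlb, a resistin-like antibacterial protein known mainly from the colon and induced by type 2 cytokines, are also released into the lumen. Agr2, a disulfide isomerase of the endoplasmic reticulum, takes part in mucin folding, and Spdef is a transcription factor of goblet cell maturation.

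The arrays held RNA of isolated colonic macrophages taken from 3 animals labelled Irgm1-/- and 3 of wild type, of whole duodenum (the small intestine samples) from 3 and 3 mice, and of whole salivary gland from 4 and 4 mice. Irgm1 encodes an interferon-inducible GTPase. All 20 samples came from C57BL/6 animals in a specific pathogen-free facility, and each replicate was a mouse of its own within its tissue. The animal numbers in the file names, with genotype, sex and age, place the colonic and duodenal samples in the same 6 animals. In those tissues the mice labelled Irgm1-/- were 2 males and 1 female, against 3 wild-type females, and each genotype held 1 mouse of 8 weeks and 2 of 6 weeks. The salivary gland mice were all female, the ones labelled Irgm1-/- aged 9 weeks and the wild-type ones 6 or 7 weeks, so that genotype and age cannot be told apart there, and sex and genotype overlap in part in the other tissues. The Irgm1 probe used for the gene read higher in samples labelled Irgm1-/- than in wild type in all 3 tissues. The log2 difference was 2.64 in salivary gland (limma adjusted p = 0.000565), 1.16 in duodenum (adjusted p = 0.0542) and 0.88 in macrophage isolates (adjusted p = 0.318). Both of the 2 Irgm1 probes on the array read higher, by 2.26 to 2.64, 1.16 to 1.18 and 0.88 to 1.16 in the same order of tissues. Which exons were deleted is not stated in the sources used, and a probe that lies elsewhere in the gene is no check of the label, so genotype is given as labelled throughout. Levels are log2 intensities minus the 75th percentile of the same array, and a gene was called when its limma adjusted p over all genes of the tissue was under 0.05. Of all probes, 57.0 to 74.2% stood well above background on the macrophage arrays, 52.6 to 62.1% on the duodenal arrays and 25.2 to 48.7% on the salivary gland arrays, and no spot was saturated. The number of arrays limits the precision.

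The 60-base probes are short stretches of each transcript, so a level here is that of the stretch and not of the whole mRNA. The probe sequences of Muc2, Zg16 and Spink4 are shown as examples of what was read, and both Fcgbp probes because they disagree in the duodenum. They are taken from the deposited scanner files and written 5′ to 3′.
Muc2 probe: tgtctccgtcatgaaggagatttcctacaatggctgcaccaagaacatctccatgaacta
Zg16 probe: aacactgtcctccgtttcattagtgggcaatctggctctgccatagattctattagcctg
Spink4 probe: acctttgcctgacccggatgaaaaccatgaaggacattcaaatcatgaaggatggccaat
Fcgbp probe used for the gene: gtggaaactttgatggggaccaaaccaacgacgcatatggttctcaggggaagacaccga
Fcgbp probe, the other: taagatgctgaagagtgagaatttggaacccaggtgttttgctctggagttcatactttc
Agr2 and Spdef were the members well above background on all 20 arrays, and the 250 bases before their RefSeq starts are shown for that reason. The Agr2 window lies at chr12:35992675-35992924 on the plus strand and the Spdef window at chr17:27728952-27729201 on the minus strand of GRCm38.p6. Capitals mark the match to the letters TTTATG, a motif of the intestinal CDX factors, searched on both strands.
Agr2 promoter: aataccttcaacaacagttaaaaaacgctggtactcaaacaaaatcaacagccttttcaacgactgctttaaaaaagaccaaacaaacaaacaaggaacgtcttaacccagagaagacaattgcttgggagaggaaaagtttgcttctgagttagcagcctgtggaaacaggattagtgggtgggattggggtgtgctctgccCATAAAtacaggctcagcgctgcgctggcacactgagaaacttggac
Spdef promoter: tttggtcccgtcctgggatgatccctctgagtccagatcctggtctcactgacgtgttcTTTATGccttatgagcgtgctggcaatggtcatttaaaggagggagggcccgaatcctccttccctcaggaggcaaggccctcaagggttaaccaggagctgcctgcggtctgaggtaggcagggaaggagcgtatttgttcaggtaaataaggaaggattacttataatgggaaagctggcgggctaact
RefSeq promoters were matched for 4 of the 8 members (Agr2, Fcgbp, Muc2 and Spdef), and these 2 held the CDX letters, which 10.8% of all 32851 promoters of that length hold. A match describes these letters only and is not a measured binding site.

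In wild-type mice 7 of the 8 genes were well above background on every array of both kinds of gut sample, and Retnlb on all 3 isolate arrays and 2 of 3 duodenal arrays. But for Agr2 and Spdef, they were low or not well above background in salivary gland. For this comparison all 20 arrays were set to the 75th percentile of the 8448 probes well above background on every array. Retnlb was the member that stood highest in the colonic isolates relative to the duodenum, with a log2 level of -1.78 ± 0.81 in isolates and -7.65 ± 2.29 in duodenum (SD, n = 3 each), a difference of 5.88 (SE 0.94, limma adjusted p = 1.77e-05). The size of that difference is uncertain, since Retnlb was not well above background on 1 of the 3 duodenal arrays and the alternatives spanned 4.04 to 7.27. Tff3 (1.98 ± 0.15 in isolates, 3.52 ± 0.08 in duodenum), Agr2 (0.47 ± 0.21 and 2.19 ± 0.13), Spink4 (1.37 ± 0.17 and 3.27 ± 0.24) and Zg16 (2.47 ± 0.75 and 3.91 ± 0.11) were lower in the isolates, by 1.45 to 1.90 on the log2 scale, with adjusted p from 0.00266 to 0.00542. Muc2 (-0.67, adjusted p = 0.264), Fcgbp (-0.18, adjusted p = 0.709) and Spdef (0.12, adjusted p = 0.746) did not pass the test. So 5 of the 8 members were called, where 81.5% of all 20518 genes tested were, and the median of all genes on this scale was itself 1.01 higher in isolates. Scaling the arrays on all probes called all 8 members and turned Spdef to -0.85, and quantile normalization turned Spdef to -0.57.

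In salivary gland most of these transcripts were below the arrays' detection. Muc2, Tff3, Spink4, Zg16 and Retnlb were not well above background on any of the 8 salivary gland arrays. Taking the dimmest detected signal of each array as the bound, Muc2 was at least 183-fold, Tff3 at least 287-fold, Spink4 at least 243-fold and Zg16 at least 378-fold lower in wild-type salivary gland than in wild-type duodenum. Retnlb was at least 7.33-fold higher in wild-type colonic isolates than in salivary gland. Genes with no signal over background in salivary gland passed the filter through the gut samples alone, so no p-value is given for them there. Fcgbp was detected on 3 of 4 wild-type salivary gland arrays, at -4.21 ± 0.62 against 3.34 ± 0.04 in duodenum (SD, n = 4 and 3), a difference of -7.55. Agr2 was lower in salivary gland than in duodenum by 3.24 on the log2 scale (adjusted p = 4.24e-06). Spdef ran the other way, at 0.75 ± 0.33 in salivary gland and -1.91 ± 0.11 in duodenum, a difference of 2.65 (SE 0.32, adjusted p = 1.19e-06). It was also 2.53 lower in colonic isolates than in salivary gland (adjusted p = 1.42e-06). Of the 7 members tested between salivary gland and duodenum all 7 were called, where 69.5% of all genes tested were. Of the 8 tested between isolates and salivary gland all 8 were called, where 85.1% were. Muc2, Tff3, Spink4 and Zg16 are in both counts, and Retnlb in the latter, only through their signal in the gut samples. The counts are therefore no test of the members. Agr2, which was 1.51 higher in isolates than in salivary gland (adjusted p = 0.00404), stood at 0.31 with scaling on all probes (adjusted p = 0.543). The arrays of a tissue were all scanned on 1 day and no day was shared by 2 tissues, so a difference between tissues cannot be told apart from a scan day.

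The samples labelled as isolated colonic macrophages contained goblet cell transcripts at a high level. All 8 members were well above background on all 6 arrays, with Fcgbp brighter than 98.7 to 99.2% of all probes of its array and Muc2 brighter than 97.3 to 99.1%. These are ranks of spot brightness, not amounts of RNA. All 14 genes of a general epithelial list (Epcam, Cdh1, keratins and others) were also detected on all 6 arrays. Myeloid transcripts were present too. Itgam, the integrin alpha M of myeloid cells, stood at 7.65, 7.89 and 7.15 in isolates from mice labelled Irgm1-/- and 8.11, 7.56 and 7.51 in wild type. Against wild-type duodenum, wild-type isolates had more Itgam by 4.34 and more Fcgr1, an Fc receptor of macrophages, by 4.65 (limma adjusted p = 2.34e-09 and 2.22e-09). These were the largest differences among the 15 macrophage genes listed. The macrophage genes Csf1r (0.04, adjusted p = 0.947) and Cd68 (0.32, adjusted p = 0.70) did not pass the test and C1qc was 2.70 lower (adjusted p = 0.00112). In mixed RNA of this kind fewer cells of a type and less RNA per cell cannot be told apart.

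All 8 members had a higher mean in the colonic isolates of mice labelled Irgm1-/- than in those of wild type, by a median of 1.07 on the log2 scale, where the median of all 21085 genes was 0.10, and no member passed the test over all genes. Called genes made up 0.138% of all genes tested. With no overlap between the groups, 6 of the 8 (Tff3, Retnlb, Spink4, Muc2, Agr2 and Spdef) were higher, which held for 7.19% of all genes, and 6 had an unadjusted p under 0.05, which held for 10.4% of all genes. With mice of the same number treated as pairs (a replicate block), 3 of the 8 were called (Tff3, Retnlb and Agr2), where 5.19% of all genes were. In the isolates the mice of a pair also shared age and slide, so the block takes up both. Sex runs in part with genotype here, as both males were labelled Irgm1-/-. With sex as a covariate the difference is therefore that of the 1 female labelled Irgm1-/- (replicate 3) against the wild-type mice. Such a fit cannot tell sex apart from that 1 mouse. The median of the members was then 0.57. In that fit Retnlb stood at 1.4, Spdef at 0.84, Agr2 at 0.74, Tff3 at 0.63, Spink4 at 0.51 and Muc2 at 0.26. Fcgbp stood at -0.02 and Zg16 at -0.53.

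Among the secreted products Tff3 and Retnlb differed most. Tff3 stood at 6.20, 6.34 and 5.03 in isolates from mice labelled Irgm1-/- and at 4.70, 4.32 and 4.17 in wild type. The lowest of the first 3 lay above the highest of the wild type. The difference was 1.46 on the log2 scale, or 2.75-fold (SE 0.38, 95% interval 0.59 to 2.33, limma adjusted p = 0.164). With the replicate block the adjusted p was 0.0345, where the alternatives spanned 0.0345 to 0.724. Retnlb stood at 3.03, 1.91 and 2.04 in isolates from mice labelled Irgm1-/- and at 1.52, 0.72 and -0.33 in wild type. The groups did not overlap, and the highest value of each was that of the mouse of 8 weeks. The difference was 1.69, or 3.22-fold (SE 0.50, interval 0.55 to 2.83, adjusted p = 0.207), and with the replicate block the adjusted p was 0.0268, where the alternatives spanned 0.0268 to 0.697.

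Spink4 and Muc2 were also separated by genotype. Spink4 stood at 5.20, 4.87 and 4.30 in isolates from mice labelled Irgm1-/- and 4.04, 3.56 and 3.77 in wild type, a difference of 1.003 (SE 0.30, adjusted p = 0.224). The mucin Muc2 stood at 5.49, 5.89 and 4.87 in isolates from mice labelled Irgm1-/- and 4.30, 4.78 and 4.75 in wild type, a difference of 0.81 (SE 0.32, adjusted p = 0.41). The margin between the groups was narrow for Muc2, since replicate 3 labelled Irgm1-/- exceeded the highest wild-type array by less than the spread within either group. Fcgbp stood at 6.04, 5.94 and 5.55 in isolates from mice labelled Irgm1-/- and 6.15, 5.07 and 5.50 in wild type (0.27, SE 0.33, adjusted p = 0.888). Zg16 stood at 5.42, 5.11 and 4.35 in isolates from mice labelled Irgm1-/- and 5.86, 4.25 and 4.53 in wild type (0.08, SE 0.46, interval -0.98 to 1.14, adjusted p = 0.981). Both overlapped between the genotypes, with the highest value of each gene in wild-type replicate 1.

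The genes that act inside the goblet cell had the same sign as the secreted ones. Agr2, the mucin-folding isomerase, stood at 4.49, 4.23 and 3.63 in isolates from mice labelled Irgm1-/- and 2.83, 2.81 and 3.02 in wild type. The wild-type values were tightly grouped and all lay below the other genotype. The difference was 1.23, or 2.35-fold (SE 0.29, interval 0.57 to 1.89, adjusted p = 0.138), and the adjusted p with the replicate block was 0.0495, where the alternatives spanned 0.0495 to 0.647. Spdef stood at 1.83, 1.99 and 1.47 in isolates from mice labelled Irgm1-/- and 0.16, 0.59 and 1.14 in wild type, a difference of 1.13 (SE 0.32, interval 0.41 to 1.86, adjusted p = 0.186). Within the 2 slides the median difference of the members was 1.30 on the slide that held 2 mice of each genotype and 0.43 on the slide that held 1 of each, and with the slide as a block no member was called.

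**Figure D1:**
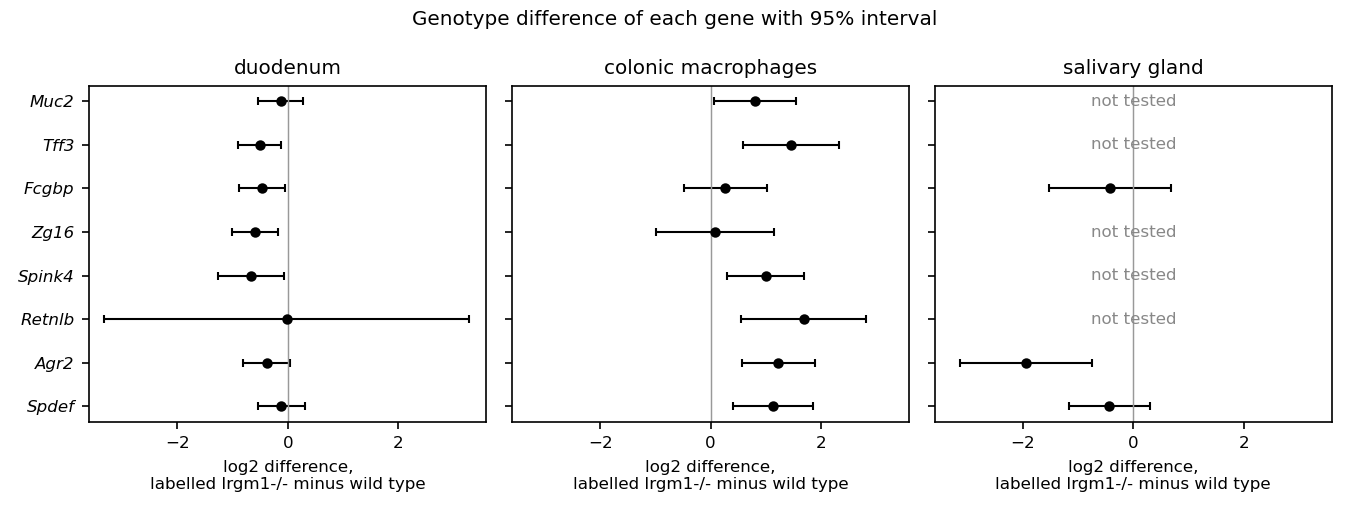
Log2 difference between mice labelled Irgm1-/- and wild-type mice for each gene in each tissue, with the 95% interval of the limma fit. All 8 points lie above 0 in the colonic isolates and all 8 below 0 in the duodenum, and 5 genes were not tested in salivary gland because no array measured them above background.

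No gene of the lists around the members was called in the isolates, where 61.6% of all genes tested were above 0. Of 21 other goblet cell genes tested in the isolates, 18 were above 0 with a median difference of 0.67. Bcas1 stood at 2.68, 2.17 and 1.55 in isolates from mice labelled Irgm1-/- and 0.44, 0.19 and 0.54 in wild type (1.74, adjusted p = 0.104). Tff2, a trefoil peptide of gastric and duodenal glands, ran the other way, at -2.02, -2.09 and -1.04 in isolates from mice labelled Irgm1-/- and 4.12, 2.33 and 1.18 in wild type (-4.26, adjusted p = 0.0719). Of 21 genes of mucin glycosylation and the secretory pathway 17 were above 0 (median 0.82), led by the glycosyltransferases Gcnt1 (1.33, adjusted p = 0.164) and Galnt12 (1.24, adjusted p = 0.107). Of 16 genes of secretory fate and Notch signalling 12 were above 0 (median 0.61). Atoh1, the transcription factor that commits gut cells to the secretory lineage, stood at 1.18, 0.74 and 0.03 in isolates from mice labelled Irgm1-/- and -1.80, -0.61 and -1.03 in wild type (1.79, adjusted p = 0.127), and Foxa3, a factor of goblet cells, differed by 1.51 (adjusted p = 0.149). Of 8 mucins 5 were above 0, which is near the share of all genes (median 0.14), with Muc4, a membrane mucin, at 1.20 (adjusted p = 0.132) and Muc13, also membrane-bound, at 0.50 (adjusted p = 0.747). In the list of type 2 cytokines and tuft cells 10 of 12 genes were below 0 (median -0.82), with Il5 at -2.53 (adjusted p = 0.121) and Il33 at -2.30 (adjusted p = 0.268), each detected on 3 of 6 arrays.

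Markers of other cell types ran with genotype in these isolates. The mean level of the 8 members on an array was 4.71, 4.54 and 3.90 in mice labelled Irgm1-/- and 3.70, 3.26 and 3.32 in wild type, without overlap. The 14 epithelial genes averaged 3.47, 2.95 and 2.57 in mice labelled Irgm1-/- and 3.25, 2.09 and 2.10 in wild type, with overlap, and 13 of the 14 were above 0 (median 0.56). The absorptive colonocyte list was highest in wild-type replicate 1, at 1.46 to 2.32 in mice labelled Irgm1-/- and 1.35 to 3.06 in wild type (7 of 10 genes above 0, median 0.28). Macrophage genes were below 0 in 12 of 14 cases (median -1.10), with array means of 0.26 to 1.07 in mice labelled Irgm1-/- and 0.75 to 1.95 in wild type. Fibroblast genes (6 of 6 below 0, median -1.33) and smooth muscle genes (6 of 6, median -1.27) had the same sign as the macrophage genes. T cell genes were above 0 in 5 of 5 cases (median 0.45). Pancreatic enzyme genes differed most, with 7 of 8 called lower, where 27 of all 21085 genes tested were. Their median was -7.38, with array means of -0.17 to 0.45 in mice labelled Irgm1-/- and 4.63 to 6.79 in wild type. The elastase Cela2a was not well above background on any of the arrays labelled Irgm1-/- (-5.99, -6.00 and -5.12) and stood at 6.78, 5.39 and 4.66 in wild type. The part of these cell types in the goblet gene differences was not tested.

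**Figure D2:**
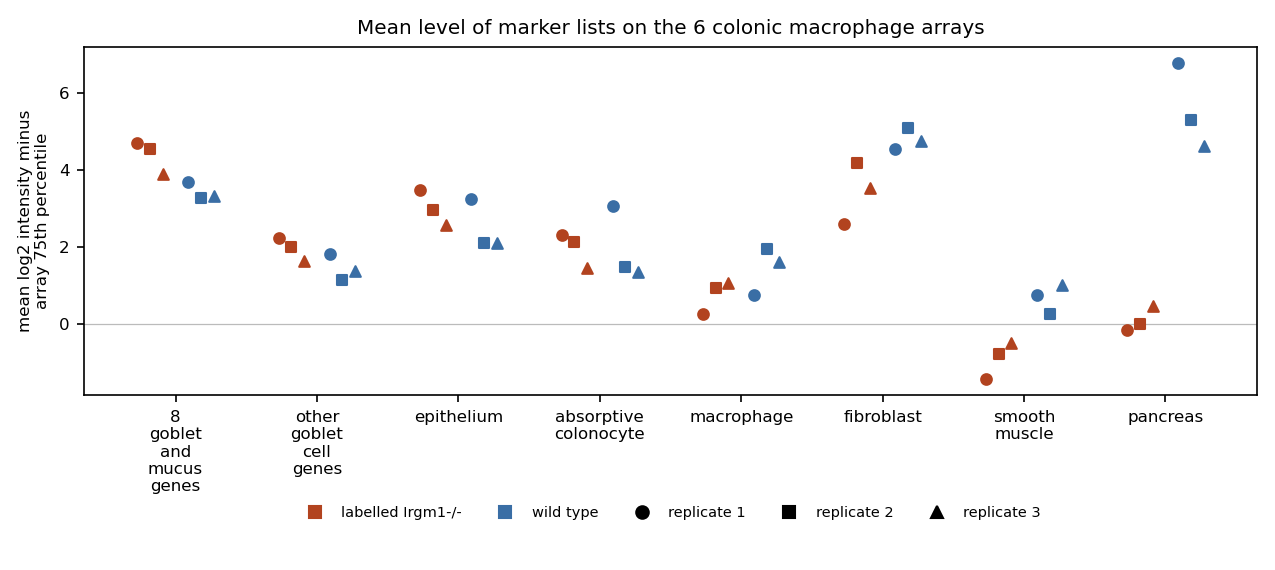
Mean log2 intensity minus the array's 75th percentile over the genes of each marker list that were detected on all 6 colonic macrophage arrays; each point is an array, by genotype and replicate. The 8 goblet and mucus genes lie between 3.90 and 4.71 in mice labelled Irgm1-/- and between 3.26 and 3.70 in wild type, while the pancreas list lies below 0.5 in mice labelled Irgm1-/- and above 4.6 in wild type.

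Set against the epithelial mean of the same array, the 8 genes did not all keep the same sign. This measure was added after the values were known and is a description with no test. The difference between genotypes was above 0 for 6 of the 8, with a median of 0.55, where 11.3% of all 20871 genes were above 0 and their median was -0.42. Without overlap 4 members were higher, which held for 1.08% of all genes. Taking off the epithelial mean lowered the difference of every gene by the same amount. Before it the median of all 21085 genes tested was 0.0972. The shares over all genes reflect that shift and are no comparison with other epithelial genes. Retnlb lay 0.44 to 1.04 below the epithelial mean in mice labelled Irgm1-/- and 1.37 to 2.43 below it in wild type. Tff3 lay 2.46 to 3.39 above the epithelial mean in mice labelled Irgm1-/- and 1.45 to 2.23 above it in wild type. Agr2 lay 1.02 to 1.28 above the mean in mice labelled Irgm1-/- and between -0.42 and 0.92 in wild type, and Spink4 lay 1.73 to 1.92 above the mean in mice labelled Irgm1-/- and 0.79 to 1.67 above it in wild type. Fcgbp (-0.25) and Zg16 (-0.44) were below 0 on this measure, Muc2 was at 0.29 and Spdef at 0.62, all 4 with overlap.

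Within the 6 isolates the members did not follow one another equally. The Pearson correlation of a gene with the mean of the other 7 was 0.992 for Spink4, 0.975 for Tff3, 0.936 for Agr2, 0.783 for Retnlb, 0.748 for Muc2, 0.688 for Spdef, 0.637 for Fcgbp and 0.392 for Zg16, over 6 arrays that share the genotype difference and the composition described above. Among 11838 genes detected on all 6 arrays, genes highly correlated with the mean of the 8 included Rep15 (0.998), Nsdhl (0.996), Reg4 (0.995), Cdcp1 (0.994), Blnk (0.994), Pop5 (0.993) and Smpd3 (0.992). With 6 arrays and so many genes searched these values are a description. Rep15, a Rab15 binding protein of secretory cells, is also in the list of other goblet cell genes.

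In the duodenum all 8 members had a lower mean in mice labelled Irgm1-/-, by a median of 0.43 on the log2 scale, where the median of all 17979 genes was -0.10, and no member was called, where 0.145% of all genes were. The direction was not that of every setting, since Muc2 stood at 0.25 after quantile normalization and in the authors' normalized table, Fcgbp at 0.15 as the mean of its probes, and Retnlb at 0.09 with another set of probes behind the percentile. Without overlap 5 members (Tff3, Fcgbp, Zg16, Spink4 and Agr2) were lower, which held for 12.6% of all genes. Zg16 stood at 6.80, 6.80 and 6.53 in mice labelled Irgm1-/- and 7.50, 7.08 and 7.33 in wild type (-0.59, SE 0.17, interval -1.01 to -0.18, adjusted p = 0.63). Tff3 stood at 6.31, 6.57 and 6.31 in mice labelled Irgm1-/- and 7.09, 6.73 and 6.90 in wild type (-0.51, SE 0.16, adjusted p = 0.665). Both genes were separated by genotype with narrow gaps. Spink4 stood at 5.97, 6.22 and 5.83 in mice labelled Irgm1-/- and 7.16, 6.39 and 6.44 in wild type (-0.66, SE 0.25, adjusted p = 0.665). Agr2 differed by -0.38 and Fcgbp by -0.47, each with an adjusted p of 0.665. Muc2 was nearly level, at 6.06, 6.38 and 5.95 in mice labelled Irgm1-/- and 6.13, 6.34 and 6.30 in wild type (-0.13, interval -0.53 to 0.28, adjusted p = 0.755). Spdef differed by -0.11 (interval -0.55 to 0.32, adjusted p = 0.79).

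On the slide with 1 duodenal sample of each genotype the median difference of the members was -0.70, and on the slide with 2 of each it was -0.31. These differences lay near those of other bright genes. The duodenal arrays labelled Irgm1-/- were brighter as a whole, with a 75th percentile of 3867.9 to 4689.5 intensity units, against 2321.5 to 3204.4 in wild type. Among the 618 genes with a mean level of at least 5, which include 6 members, the median difference was -0.36 and 94.0% were below 0, whereas among the 9676 genes below 0 in level the median was -0.0048. Before scaling, the Tff3 spots read 360587 to 372786 in mice labelled Irgm1-/- and 315684 to 340301 in wild type, and the Zg16 spots 419268 to 522372 in mice labelled Irgm1-/- and 420360 to 444091 in wild type. The scanner's limit was 775829 to 775920 on these arrays. Quantile normalization gave a median of -0.05 over the members and the authors' table -0.05. The part of spot brightness in the duodenal differences was not tested.

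**Figure D3:**
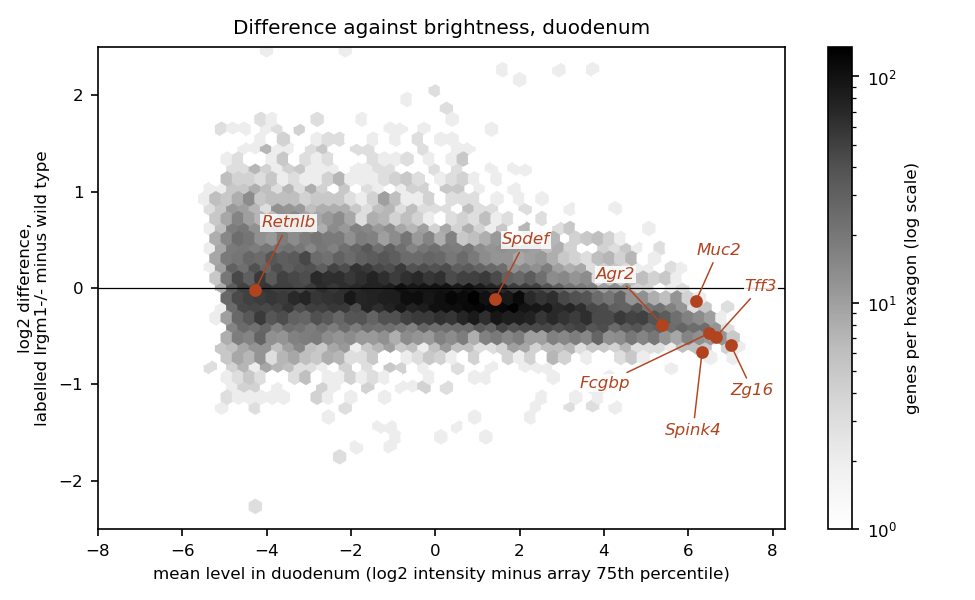
Log2 difference between mice labelled Irgm1-/- and wild-type mice in duodenum against mean level for all 17979 genes tested, with the 8 genes marked; grey hexagons count genes on a log scale and 37 genes lie outside the axis limit of 2.5. The cloud slopes down at high level, and 6 of the 8 genes lie at a level of 5 or more.

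Retnlb and Fcgbp need their detection stated in the duodenum. Retnlb was well above background in 1 of 3 mice labelled Irgm1-/- (-5.45, -2.06 and -5.33) and 2 of 3 wild-type mice (-3.61, -2.34 and -6.83). The spread of these values left a genotype difference of -0.02 with an interval of -3.32 to 3.29 (adjusted p = 0.996), which does not exclude a large change either way. The other Fcgbp probe was dimmer and had the opposite sign, at 1.14, 1.30 and 1.32 in mice labelled Irgm1-/- and 0.67, 0.59 and 0.15 in wild type. That difference was 0.78 (SE 0.19, adjusted p = 0.50 over all probes), against -0.47 for the probe used for the gene. The same dim probe was well above background on 1 of 6 macrophage arrays and on none of the 8 salivary gland arrays.

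No gene of the lists around the members was called in the duodenum, where 62.5% of all genes tested were below 0. Of 20 other goblet cell genes 14 were below 0 (median -0.15), with Ang4, an antimicrobial ribonuclease, at -0.60 and Guca2a, which encodes guanylin, at -0.57 (adjusted p = 0.665 for both). Of 22 genes of mucin glycosylation and the secretory pathway 15 were below 0 (median -0.15), with the sialyltransferase St6galnac1 at -1.11 (adjusted p = 0.683) and Gcnt1 at 1.04 (adjusted p = 0.646). Of 15 genes of secretory fate and Notch signalling 9 were below 0 (median -0.06), with Elf3 at -0.39 (adjusted p = 0.67) and Gfi1 at -0.34 (adjusted p = 0.665). Of 7 mucins 3 were below 0 (median 0.11), with Muc3 at 0.85 (adjusted p = 0.676) and Muc13 at -0.44 (adjusted p = 0.665). Of 7 genes of the type 2 cytokine and tuft list 5 were below 0 (median -0.21). The epithelial list was below 0 for 12 of 14 genes (median -0.27) and the Paneth cell list for 5 of 5 (median -0.54). Over the 6 arrays the genes most correlated with the mean of the 7 detected members, among 12360 searched, were Rps16, Kcmf1, Slc7a7, Ppia, Sord, Uqcrh, Smad5 and Prr15 (0.993 to 0.997), of which Rps16 is a ribosomal protein and Ppia a widely expressed isomerase.

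In salivary gland 3 members could be tested, and all 3 had a lower mean in mice labelled Irgm1-/-, by a median of 0.43 where the median of all genes was 0.03, with none called, where 2.25% of all 11457 genes were. Agr2 stood at -4.68, -2.59, -1.87 and -2.35 in mice labelled Irgm1-/- and -0.98, -0.81, -1.01 and -0.93 in wild type. The groups did not overlap, which held for 3.24% of all genes in that direction. The wild-type mice lay within a narrow band while replicate 1 labelled Irgm1-/- lay far below after scaling. Its array was the brightest in salivary gland, with 10262.7 intensity units used for scaling, against 1472.1 to 4071.5 on the other arrays. Before scaling, its Agr2 spots read 400, against 319 to 1112 in the other mice of that genotype and 771 to 1926 in wild type. Its Spdef spots read 7104, against 2326 to 8193 in those mice and 2370 to 7423 in wild type. The part of array brightness in the low Agr2 level was not tested. The Agr2 difference between genotypes was -1.94, or 0.261-fold (SE 0.52, interval -3.13 to -0.75, adjusted p = 0.103). Without Irgm1-/- replicate 1 it was -1.34 and passed the test (adjusted p = 0.00468, where leaving out single mice spanned 0.00468 to 0.225). It also passed with the arrays scaled to their median (-1.82, adjusted p = 0.0355) and in a fit of all 20 arrays (adjusted p = 0.00653), where the alternatives spanned 0.00653 to 0.367. On the 2 slides, each with 2 mice of each genotype, Agr2 differed by -2.74 and -1.14, Fcgbp by -1.09 and 0.25 and Spdef by -0.93 and 0.06, so Agr2 alone of these 3 kept its sign on both. The slide given first held the bright array of replicate 1 labelled Irgm1-/-.

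Spdef and Fcgbp overlapped between the genotypes in salivary gland. Spdef stood at -0.53, 0.69, 1.01 and 0.52 in mice labelled Irgm1-/- and 0.97, 1.05, 0.37 and 1.04 in wild type (-0.43, SE 0.32, adjusted p = 0.438). Fcgbp stood at -5.73, -4.37, -3.37 and -4.61 in mice labelled Irgm1-/- and -4.17, -3.76, -4.94 and -3.54 in wild type, near the limit of detection (-0.42, SE 0.49, adjusted p = 0.62). Salivary acinar genes ran with Agr2, with 9 of 10 below 0 (median -0.57). Their array means were 2.29, 4.31, 4.54 and 4.66 in mice labelled Irgm1-/- and 4.72, 4.79, 3.57 and 4.90 in wild type. The lowest mean was in the same replicate 1 labelled Irgm1-/-, whose array was the brightest. Macrophage genes were above 0 in 12 of 13 cases, where 54.6% of all genes were. Of them 6 were called higher, where 240 of all 11457 genes tested were. The part of either in the Agr2 difference was not tested. Of 12 other goblet cell genes 9 were below 0 (median -0.32), where 45.4% of all genes were, with Muc13 at 0.88 (adjusted p = 0.0656) and Klk1, a kallikrein of salivary ducts, at -0.60 (adjusted p = 0.345). In the secretory fate list Elf3, an epithelial transcription factor, was called higher (0.71, adjusted p = 0.0214).

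The genotype differences were then compared between tissues in a single fit of all 20 arrays, which held no term for the animal. Agr2 and Spdef differed between colonic isolates and salivary gland, by 3.17 (SE 0.62, limma adjusted p = 0.00417) and 1.57 (SE 0.44, adjusted p = 0.0437), and Fcgbp did not pass (0.69, adjusted p = 0.711). So 2 of 3 members tested were called, where 6.09% of all genes were. Between colonic isolates and duodenum, which came from the same animals, all 8 differences were above 0 and none passed, where 0.886% of all genes did. Tff3 was at 1.97 (SE 0.67, adjusted p = 0.173), Retnlb at 1.71 (SE 1.34, adjusted p = 0.547), Agr2 at 1.61 (SE 0.66, adjusted p = 0.251) and Spink4 at 1.66 (SE 0.80, adjusted p = 0.324). After quantile normalization Tff3 passed, at 1.33 (adjusted p = 0.0224, where the alternatives spanned 0.0224 to 0.116). Between salivary gland and duodenum none of the 3 members tested passed, where 0.537% of all genes did.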

How the data were processed

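RNA from mouse duodenum, colonic macrophage isolates and salivary gland was labelled with Cy5, per the labels' protocols, and read on 20 single-colour Agilent arrays with Feature Extraction 11.5.1.1, per the file headers. The deposited scanner files hold intensity values, background-subtracted by the scanner software, and flags per spot. The authors' series table also holds deposited intensity values and was an alternative. Here outlier spots were left out, spots of a probe averaged, and log2 intensity taken minus the array's 75th percentile, over all probes or, in salivary gland, over the 9555 probes well above background on all 8 arrays. The brightest probe stood for a gene. Genes detected on at least 3 arrays (4 in salivary gland) were fitted per tissue with limma 3.58.1 in R 4.3.3 with Benjamini-Hochberg adjustment, after checks on simulated data. Of the probes 27508 were named by accession and 11921 by file name. The main fits held no pairing of mice, and replicate numbers were treated as pairs only in an alternative, the replicate block, run in every tissue. The deviations of same-numbered mice correlated by 0.23 to 0.33 in duodenum and 0.24 to 0.63 in isolates. In salivary gland they correlated by -0.53 to 0.44. The members and lists were chosen with earlier results of these data known. All 8 members were named in every tissue, with up to 4 called genes of each list by size, or up to 2 where none was called. Further genes named in the text (Itgam, Fcgr1, Csf1r, Cd68, C1qc, Cela2a, Rep15) were singled out after their values were seen. Alternatives covered scaling, background, filter, slide, sex, replicate block and leaving out each mouse. The fits between tissues treated samples of the same animal as independent, with the animal as a random block as an alternative. Of the 8 genes most correlated with the members in the isolates, 1 is not reported here.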

Additional observations from a re-analysis of the deposited data

Results flagged for a closer look

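The genotype difference of Agr2 was higher in colonic macrophage isolates than in salivary gland by 3.17 on the log2 scale, and that of Spdef by 1.565, both by the test of the difference between tissues (limma adjusted p = 0.00417 and 0.0437). Both genes had a higher mean in isolates and a lower one in salivary gland of mice labelled Irgm1-/- than in wild type, while the mice differed between these tissues in age and sex as well as in array scan day. In salivary gland, wild-type replicate 3 had a Spdef level of 0.37, well below the other 3 wild-type mice at 0.97 to 1.05. Chance marks about 1 in 20 groups in this way.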

How the results depend on the processing

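Called genes over a whole tissue moved with the settings. In salivary gland 258 genes were called, against 150 with median scaling, 143 with no filter and 117 with detection on every array. The slide as a block gave 616, the replicate block 664, a fit of all 20 arrays 393 and leaving out single mice 153 to 547. Members called were 1 (Agr2) with median scaling and in the fit of 20 arrays, and 0 to 1 leaving out single mice. With the replicate block 0 were called, where the pairs share a number and a slide but not an age. The median of the members tested in salivary gland was -1.19 with detection on every array, which left out Fcgbp. In duodenum 26 genes were called, against 1 with normexp, 1 with the replicate block, 1 with sex as a covariate and 1 to 36 leaving out single mice, and the median of the members was -0.0469 with quantile normalization and -0.0487 in the authors' table. In isolates 29 genes were called, against 87 with median scaling, 183 with normexp, 14 with detection on every array, 1095 with the replicate block, 11 with sex as a covariate, 841 in the fit of 20 arrays and 16 to 46 leaving out single mice. Members called there were 3 with the replicate block, which changed no other member's call in any tissue, and their median was 0.572 with sex as a covariate and 0.921 to 1.27 leaving out single mice. Signs turned in duodenum for Muc2 (0.248 with quantile normalization, 0.245 in the authors' table), Fcgbp (0.153, mean of its probes) and Retnlb (0.0941 with another probe set, -1.30 to 0.946 leaving out single mice), in isolates for Fcgbp (-0.0244) and Zg16 (-0.527) with sex as a covariate and for Zg16 leaving out single mice (-0.232 to 0.572). Between wild-type isolates and duodenum, members called were 8 with scaling on all probes and 3 in the mice labelled Irgm1-/-; Spdef turned to -0.854 with scaling on all probes and -0.567 with quantile normalization, and Tff3 (0.129) and Fcgbp (0.254) turned in the mice labelled Irgm1-/-. In the test of genotype differences between tissues, 1 member was called between isolates and duodenum with quantile normalization, and Fcgbp turned to -0.38 between salivary gland and duodenum. The causes were not tested. In salivary gland 5 of the 8 genes had no signal over background to compare.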

Other observations

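Retnlb was highest in the mouse of 8 weeks of each genotype in both tissues taken from these animals. In duodenum the 8-week mouse labelled Irgm1-/- stood at -2.06, against -5.45 and -5.33 in the 6-week mice of that genotype. The 8-week wild-type mouse stood at -2.34, against -3.61 and -6.83. Of these values -5.45, -5.33 and -6.83 were not well above background. In colonic isolates the 8-week mouse labelled Irgm1-/- stood at 3.03, against 1.91 and 2.04, and the 8-week wild-type mouse at 1.52, against 0.72 and -0.33. The epithelial mean of the isolates was also highest in the 8-week mouse of each genotype. It was 3.47 against 2.95 and 2.57 in mice labelled Irgm1-/-, and 3.25 against 2.09 and 2.10 in wild type. With 1 mouse of 8 weeks per genotype the link of Retnlb with age was not tested, nor was the part of epithelium. The duodenal and colonic values come from the same 2 animals of that age.

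Tff2 went against most other goblet cell genes in the colonic isolates, and it was highest in wild-type replicate 1 (4.12) and lowest of the wild-type mice in replicate 3 (1.18). The pancreas list had the same order in wild type, with means of 6.79, 5.31 and 4.63. That order is not particular to it, since the absorptive colonocyte list had it too (3.06, 1.48 and 1.35). The epithelial list did not (3.25, 2.09 and 2.10). A link of Tff2 with any of these lists was not tested. Clca1, which encodes an abundant secreted mucus protein, was level in the same isolates, at 2.95, 2.84 and 2.92 in mice labelled Irgm1-/- and 3.05, 2.75 and 3.09 in wild type.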
